A study of Mus musculus with 2 samples.

Results

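Otx2, Pou3f1, Zic2 and Zic5 encode transcription factors of the primed epiblast, the pluripotent tissue of the mouse embryo shortly after implantation. They were chosen by symbol from the deposited table of exon read counts, where each of the 4 genes had 1 gene model among 32958 models and 30744 symbols. The table holds 2 RNA-seq libraries of mouse kidney, and the series title asks about the circadian clockwork of kidney tumours that arise during in vivo reprogramming. The normal kidney carries the genotype label WT and had no doxycycline (dox treatment no). The tumour comes from a kidney labelled Tet-OSKM/mPer2-luc with dox treatment yes, and both libraries have C57BL/6 x DBA/2 F1 as their strain. In Tet-OSKM cells doxycycline, through the transactivator M2rtTA made from the Rosa26 locus, turns on the 4 reprogramming genes Pou5f1 (protein OCT4), Sox2, Klf4 and Myc, while mPer2-luc reports the clock gene Per2 through luciferase. Per the labels' protocols, embryonic stem cells with these transgenes were injected into blastocysts of the hybrid strain to make chimeras, so a tissue can hold cells with and without the transgenes. The same protocol stands with both libraries, and whether the normal kidney came from a chimera, the age and sex of the animals and the length of the doxycycline treatment are not given in the sources used here.

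The epiblast passes from a naive state, held before implantation, to a primed state in which its cells can answer the signals that start gastrulation. OTX2 is a homeodomain protein that, in mouse cells leaving the naive state, binds together with OCT4 at enhancers of the primed state, and it is later needed for the forebrain and midbrain. POU3F1 (OCT6) is, like OCT4, a POU domain protein, though of another POU class. It is made in the epiblast, in early neural cells and in Schwann cells that are about to form myelin. ZIC2 and ZIC5 are zinc finger proteins whose genes lie side by side, both needed for closure of the neural tube, and ZIC2 also occupies enhancers in embryonic stem cells. Since all 4 genes are used again in neural tissue, markers of neural cells are given below next to those of the epiblast.

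The promoter table of RefSeq on GRCm38.p6, the assembly called mm10 in the submitters' processing notes, held 5 windows for 2 of the 4 genes, 4 for Otx2 and 1 for Zic5. Each window runs from 250 bases before to 50 bases after a start site. The 3 shown are those that hold the start of the counted model of each gene, and the upstream Otx2 window with a CCAAT box. All 3 are written 5′ to 3′ along the minus strand, on which both genes are read, and capitals mark a motif.
Otx2, upstream start site, chr14:48667459-48667758: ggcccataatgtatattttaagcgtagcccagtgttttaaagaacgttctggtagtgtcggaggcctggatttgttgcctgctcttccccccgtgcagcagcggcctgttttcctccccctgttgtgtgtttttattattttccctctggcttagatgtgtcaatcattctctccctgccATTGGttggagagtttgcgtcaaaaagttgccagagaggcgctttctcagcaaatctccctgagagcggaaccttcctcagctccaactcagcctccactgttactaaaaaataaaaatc
Otx2, start of the counted model, chr14:48662685-48662984: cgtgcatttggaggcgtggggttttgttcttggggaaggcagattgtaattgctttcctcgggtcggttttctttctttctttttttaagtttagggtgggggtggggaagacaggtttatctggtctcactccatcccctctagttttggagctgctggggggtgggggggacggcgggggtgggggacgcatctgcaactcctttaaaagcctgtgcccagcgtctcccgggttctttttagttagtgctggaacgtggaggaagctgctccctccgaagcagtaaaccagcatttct
Zic5, start of the counted model, chr14:122465609-122465908: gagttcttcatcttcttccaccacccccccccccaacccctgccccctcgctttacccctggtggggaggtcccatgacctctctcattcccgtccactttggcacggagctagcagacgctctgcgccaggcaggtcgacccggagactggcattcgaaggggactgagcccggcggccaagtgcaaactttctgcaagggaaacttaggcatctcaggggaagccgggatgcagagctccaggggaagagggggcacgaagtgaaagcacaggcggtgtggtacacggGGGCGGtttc
Searched on both strands were the octamer ATGCAAAT bound by POU proteins, the Sox motif CATTGT, the E-box CACGTG, the D-box TTATGTAA, the GC box GGGCGG, the CCAAT box and the TATA box with its letters TATAAA. The upstream Otx2 window shown held 1 CCAAT box, on the opposite strand and so printed as its complement, at -70 to -66 counted from 0 at its start site. The Zic5 window held 1 GC box at 40 to 45 after the start site, and no 2 matches overlapped. Among 32851 windows of the table, 37.4% held the CCAAT box, 35.7% the GC box, 1.74% the octamer, 12.6% the Sox motif, 7.15% the E-box, 0.938% the D-box and 13.6% the TATA box. The octamer, Sox, E-box and D-box letters were in none of the 5 windows, and a TATA box was at -192 to -187 in another upstream window of Otx2, not shown. The 4 Otx2 windows held 6, 8, 11 and 16 CpG, the 8 and 11 in the upstream and counted windows shown, and the Zic5 window 15, against a median of 7 over all windows. Windows with at most as many CpG made up 60.4% of the table for the counted Otx2 start and 67.0% for Zic5. RefSeq places that Otx2 start site at 48662734, 138 bases inside the counted model, which starts at 48662872. For Zic5 the start site and the counted start are the same base, 122465658.

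Exon reads numbered 29258428 in normal kidney and 20836819 in the tumour, 72.4% and 62.8% of the totals of 40408775 and 33169818 in the file headers. CPM below are TMM-scaled, a scaling of the library sizes by the bulk of genes, and RPKM are the authors' values per kilobase of the counted model. Pou5f1 and Sox2, named in the genotype as O and S of OSKM, had 0 reads each in the normal library and 11358 and 3820 in the tumour, in the direction of the labels, although exon reads do not tell transgene from endogenous transcripts. With 1 library per group there is no replicate check and no test: every value compares these 2 libraries and not the conditions, and every interval is a 95% interval for counting error only. A gene was called higher or lower when its ratio reached 2-fold with an interval that excluded 1. Of 16326 measured genes, those with at least 20 reads over both libraries, 5099 were called higher in the tumour library, 31.2%, and 4566 lower, 28%. Of all calls 52.8% were higher, and 67.6% with plain CPM, which raised the median log2 ratio over all measured genes from 0.08 to 0.64. Mitochondrial models took 10.6% of exon reads in normal kidney and 1.22% in the tumour, and the ribosomal RNA precursor Rn45s 0.304% and 2.73%, and scaling without them changed no call of the 4 factors. In bulk tissue, fewer cells of a type and less RNA per cell cannot be told apart.

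All 4 factors had 0 reads in the normal kidney library and between 412 and 2125 reads in the tumour library. All 4 were therefore called higher, as is any measured gene with 0 reads in the normal library. The call thus adds nothing to the counts, and the 31.2% called higher over all measured genes is no yardstick for it. A count of 0 allows up to 3 reads in the normal library, and the folds are lower bounds set by that floor.

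Otx2 (uc007tjq.3, chr14:48657677-48662872 on mm10, minus strand, a model of 2228 bases) had 0 reads in normal kidney and 2039 in the tumour. Its level was 27.6 RPKM in the tumour (26.4 to 28.8) and 0 in the normal kidney, with an upper counting limit of 0.0410 RPKM. The tumour library was at least 648-fold higher, and the lower counting limit was 527-fold. Per base of the deposited model length this was the highest level of the 4 genes in the tumour library, but with the exonic length of the whole gene in GENCODE M21 Otx2 lay below Zic2, at 0.655 of its level.

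Zic2 (uc007vbd.1, chr14:122475384-122480328, plus strand, 2964 bases) had 0 and 2125 reads, the most reads of the 4. Because its model is longer, this came to 21.6 RPKM (20.7 to 22.6) in the tumour, against 0 (upper limit 0.0308) in the normal library. The fold was at least 676, with a lower counting limit of 549.

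Pou3f1 (uc029uzh.1, chr4:124657646-124660655, plus strand, 3009 bases) is a gene of a single exon. It had 0 and 1188 reads, which gave 11.9 RPKM (11.2 to 12.6) in the tumour and 0 (upper limit 0.0303) in the normal library. It was at least 378-fold higher in the tumour, with a lower counting limit of 307-fold. Its level in the tumour lay between those of the paired Zic genes.

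Zic5 (uc007vbb.2, chr14:122459160-122465658, minus strand, 2381 bases) was the least abundant of the 4. Its 0 and 412 reads gave 5.22 RPKM (4.73 to 5.75) in the tumour and 0 (upper limit 0.0383) in the normal library. Zic5 was at least 131-fold higher in the tumour, with a lower counting limit of 106-fold. Of 2334 stretches of 50 bases in its counted model, 361 also occur in transcripts of Gm12241, a processed pseudogene, or Tmem236, so its count is uncertain. Otx2, Zic2 and the counted part of Pou3f1 shared no such stretch with another gene.

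**Figure D1:**
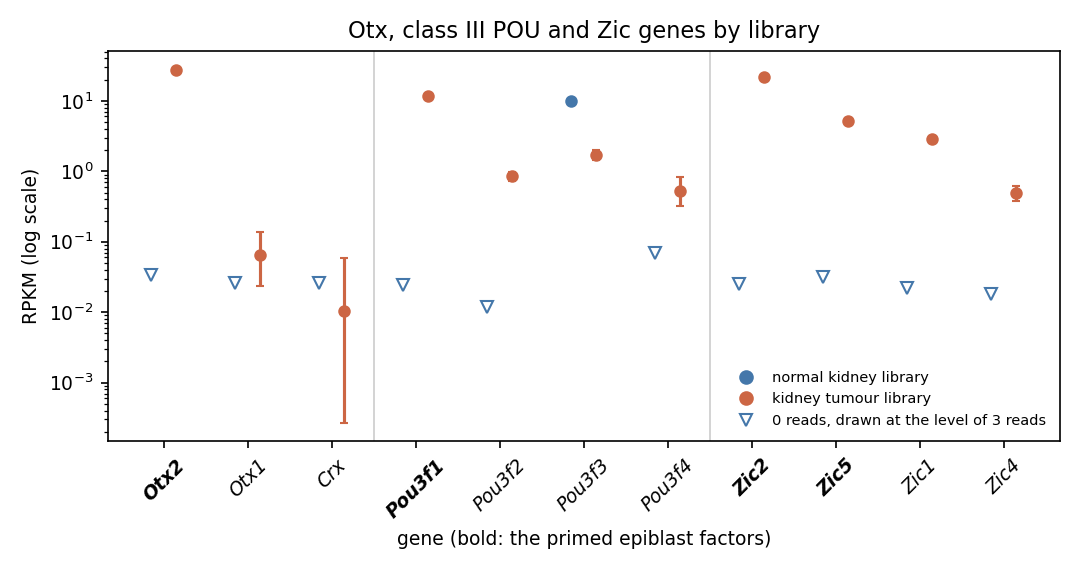
RPKM of the Otx, class III POU and Zic genes in the normal kidney (blue) and kidney tumour library (orange) on a log axis, 1 library each. Bars are exact Poisson 95% intervals for counting error, and open triangles mark 0 reads, drawn at the level of 3 reads. Otx2, Pou3f1, Zic2 and Zic5 stand between 5.22 and 27.6 RPKM in the tumour and at 0 reads in the normal library, whereas Pou3f3 is higher in the normal kidney.

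In the tumour library the order of levels per length was Otx2, Zic2, Pou3f1 and Zic5, and the intervals of neighbours did not overlap. Otx2 stood 1.28-fold above Zic2 (1.20 to 1.36), Zic2 1.82-fold above Pou3f1 (1.69 to 1.95) and Pou3f1 2.28-fold above Zic5 (2.04 to 2.56). The first step depends on the length used. With the exonic length of the whole gene in GENCODE M21 in place of the deposited length, Otx2 was at 0.655 of Zic2, so these neighbours have no settled order, and the other steps kept their direction. The counted models span 57.5% of the annotated exonic bases of Otx2 and 51.2% of those of Zic5, against 78.2% for Pou3f1 and 100% for Zic2.

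Set among all 16326 measured genes, Otx2 ranked 1707 by RPKM in the tumour library, Zic2 2318, Pou3f1 4233 and Zic5 7498. They are thus moderately abundant transcripts, at the 89.5, 85.8, 74.1 and 54.1 percentile. All 4 were among the 224 genes (1.37% of those measured) with 0 reads in normal kidney and 100 or more in the tumour, where they ranked 19, 23, 46 and 88 by tumour RPKM. All 4 were also at least 100-fold higher, as were 300 genes, 1.84% of those measured. Together they took 5764 reads, 0.0277% of the tumour's exon reads. Over the 4 scalings of library size tried, the log2 ratio at the floor ran from 9.33 to 9.90 for Otx2 and from 7.03 to 7.59 for Zic5.

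**Figure D2:**
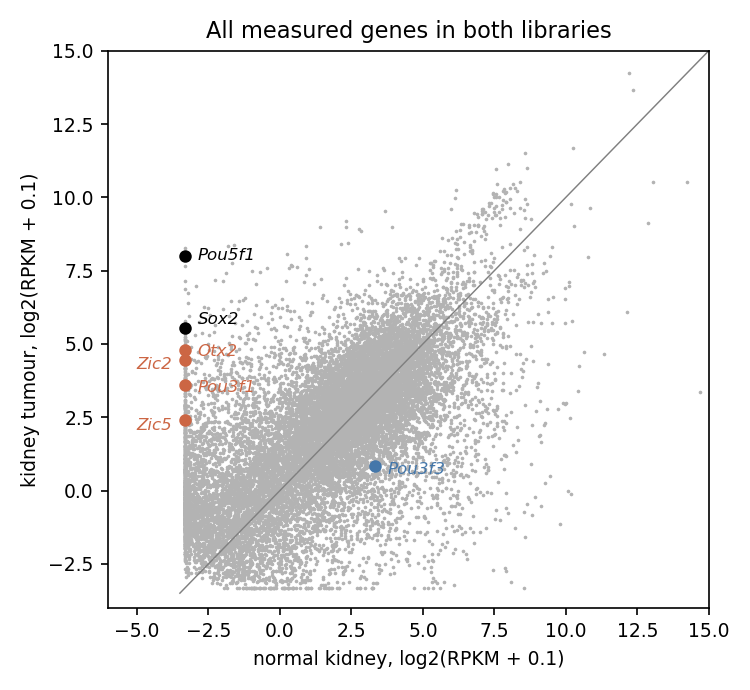
Levels of the 16326 measured genes, as log2(RPKM + 0.1), in the normal kidney (x axis) and the kidney tumour library (y axis); the line marks equal values. The 4 primed epiblast factors (orange) lie at the left edge with 0 reads in the normal library, below Pou5f1 and Sox2 (black), and Pou3f3 (blue) lies below the line.

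Each factor belongs to a small gene family. In the Otx and class III POU families the primed epiblast gene held the largest share of family RPKM in the tumour library. Otx2 made up 99.7% of the Otx family. Its paralogs, Otx1 of the cerebral cortex and Crx of photoreceptors, had no read in normal kidney and 6 and 1 in the tumour, too few to be measured.

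In the class III POU family the libraries held different genes. Pou3f3 (BRN1), which has a known role in the loop of Henle of the kidney, had 1239 reads in normal kidney and 173 in the tumour, or 10.01 and 1.70 RPKM, and was 7.51-fold lower (6.40 to 8.85). It held 100% of the family's RPKM in the normal kidney and 11.4% in the tumour, where Pou3f1 held 79.5%. Pou3f2, a neuronal factor, had 0 and 176 reads, at least 56.0-fold higher, and Pou3f4, known from the inner ear, 0 and 19 reads, short of the 20 needed to be measured. Of the 4 class III POU genes, Pou3f3 was the 1 called lower in the tumour.

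In the Zic family, Zic1 and Zic4, a second neighbouring pair known from the cerebellum, were set beside Zic2 and Zic5. They had no read in normal kidney and 315 and 67 in the tumour, at least 100.2-fold and 21.3-fold higher. Their levels in the tumour, 2.84 RPKM (2.53 to 3.17) and 0.495 RPKM (0.383 to 0.628), lay below that of Zic5, and these intervals did not overlap with that of Zic5 or with each other. Both pairs were called higher, so the difference was found beyond the primed epiblast pair. The longest stretch of letters that a member shared with a paralog was 38 bases, between Pou3f1 and Pou3f2, and 35 between Zic2 and Zic1.

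Zic2 and Zic5 are read away from each other from starts that lie 9726 bases apart on chromosome 14. In the tumour library Zic2 had 5.16 reads for each read of Zic5 (4.64 to 5.75). This ratio of reads takes no account of model length, and per length the levels were 21.6 and 5.22 RPKM. The Zic5 count is uncertain, as said above, and the interval leaves that out. The noncoding model 2610035F20Rik starts 185 bases before the Zic2 start and is read away from it, on the minus strand. It had 0 and 77 reads, at least 24.5-fold higher. Gm5089, a noncoding model 8014 bases from Zic5, had 0 and 38 reads, at least 12.1-fold higher. Beyond these the direction turned: Pcca, a mitochondrial carboxylase subunit, 54000 bases from Zic2, was 5.25-fold lower (4.85 to 5.71), and Clybl, another mitochondrial enzyme, 56926 bases from Zic5, 6.37-fold lower (5.67 to 7.17). Further out, Tm9sf2, Ggact and the model AK157947 were lower too, 2.85-fold (2.73 to 2.98), 10.8-fold (9.37 to 12.5) and 6.81-fold (2.86 to 19.7). Within 500 kb on either side of Zic2, with Zic5 left out, 2 of 10 measured models were higher and 6 lower. The 2 higher ones were those next to the Zic pair. Among all measured genes the shares were 31.2% higher and 28% lower.

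Around Otx2 no measured model was higher. Otx2os1, a noncoding model on the opposite strand 6416 bases upstream of the counted model, had 0 and 17 reads, short of the 20 needed to be measured. Tmem260, the nearest measured gene, was 5.04-fold lower (4.40 to 5.78), Peli2, a ubiquitin ligase, 3.36-fold lower (3.01 to 3.75) and the model Gm6498 3.28-fold lower (1.80 to 6.32), the latter with 47 and 15 reads. Exoc5, a subunit of the exocyst, was 1.27-fold lower (1.19 to 1.35) and so not called, and the model 4933429O19Rik had 1 and 0 reads. Of 5 measured models within 500 kb of Otx2, 3 were lower and 2 were neither, beside 28% lower over all measured genes.

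Around Pou3f1, 7 of 16 measured genes within 500 kb were higher, 1 lower and 8 neither. The shares over all measured genes were 31.2% higher and 28% lower, and no lean of this small set was tested. The nearest, Utp11l, of ribosomal RNA processing, was 1.75-fold higher (1.55 to 1.97) and not called, while Fhl3, a LIM domain protein, was 2.42-fold (1.75 to 3.38) and Sf3a3, a splicing factor, 4.04-fold higher (3.74 to 4.37). On the other side AK017068 had 0 and 4 reads, and Rragc and Mycbp, both over 700 kb away, were 1.24-fold (1.16 to 1.33) and 1.25-fold lower (1.11 to 1.42) and not called. None of these neighbours came near the 378-fold of Pou3f1 at the floor.

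**Figure D3:**
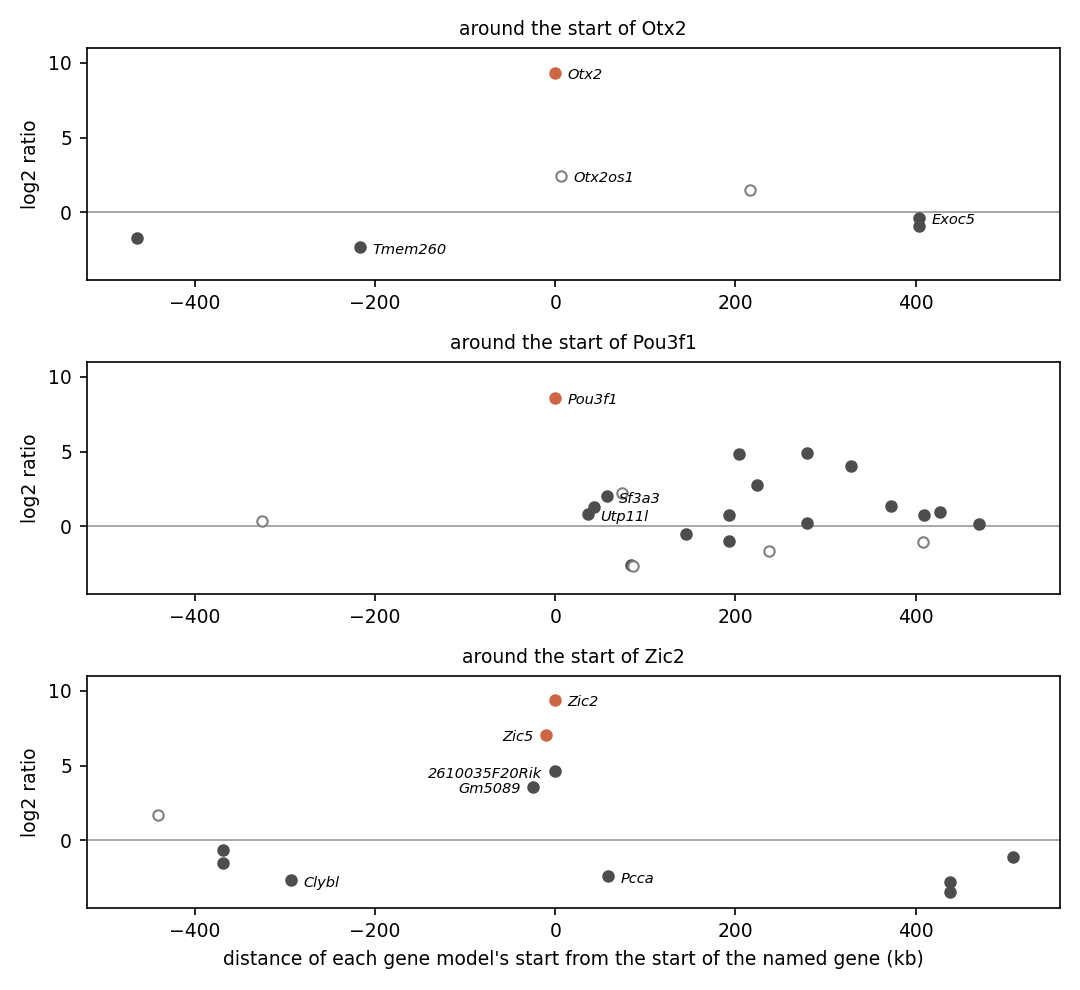
Log2 ratio, tumour over normal library, of gene models with reads against the distance of their start from that of Otx2, Pou3f1 and Zic2 (kb, along the chromosome). Filled points are measured genes, open points have fewer than 20 reads, and orange marks the primed epiblast factors. Otx2 and the Zic pair stand above neighbours that are lower, and the points next to the Zic pair are 2610035F20Rik and Gm5089.

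The other genes of the primed and formative epiblast were higher in the tumour library as well. All 20 of 20 were measured and called higher, where 31.2% of all measured genes were, with a median log2 ratio of 6.95 against 0.08. The list was chosen with earlier results of these data known, so its share is no independent check. For the 6 genes with 0 reads in the normal library the call was fixed. The summed level of the 20 was 167 CPM in normal kidney and 3071 CPM in the tumour. Tdgf1 (Cripto), a co-receptor of Nodal, had 0 and 7522 reads, at least 2392-fold higher, and Lefty2, an antagonist of Nodal, 0 and 3554 reads, at least 1130.2-fold higher. Tdgf1 has pseudogene copies and Lefty2 a close paralog, Lefty1, so their counts are uncertain. The DNA methyltransferase Dnmt3b had 36 and 29955 reads, 794-fold higher (573 to 1134). Fgf5, the growth factor most used to mark the primed epiblast, was named after its values were seen: it had 0 and 911 reads, at least 289.7-fold higher, and its 10.98 RPKM in the tumour lay between Pou3f1 and Zic5. The smallest difference of the list was that of Sall2, a zinc finger gene already read in normal kidney, at 2.80-fold (2.62 to 3.0005).

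Genes of naive pluripotency, which precede the primed factors in the embryo, were higher for 14 of 16, with 1 lower, 1 neither and a median of 5.57. Over all measured genes 31.2% were higher and 28% lower. The call was fixed for the 7 of the 16 with 0 reads in normal kidney. The summed level of the naive list went the other way, from 949.9 CPM in normal kidney to 654 CPM in the tumour. Of these sums Tfcp2l1 alone held 799 and 93 CPM. Tdh, a threonine-breaking enzyme of embryonic stem cells, had 0 and 1922 reads, at least 611-fold higher. The growth factor Fgf4 had 0 and 1448 reads, at least 460.5-fold higher, and Fbxo15, a target of OCT4, 0 and 1335, at least 425-fold higher. Tfcp2l1, a naive factor that is also made in the distal nephron, was 8.60-fold lower (8.24 to 8.98). The core factors shared by both states were higher for 5 of 5, with a median of 11.82. That median is the value of Pou5f1 at the floor. For 3 of the 5, with 0 reads in normal kidney, the call was fixed. Lin28a had 1 and 12152 reads, a ratio of 11593 (2080 to 457931), and Nanog 1 and 4507, a ratio of 4300 (771 to 169863). Pou5f1 and Sox2 were at least 3612-fold and 1215-fold higher, and Pou5f1 and Nanog have pseudogene copies, which makes their counts uncertain. Pou5f1, Sox2 and, on the naive list, Klf4 are reprogramming genes that doxycycline turns on. Exon reads do not tell these transgenes from the endogenous genes, so their calls say nothing on the pluripotent state. The primed factors were thus not found without naive and core genes in this library, and whether the same cells held them cannot be told from bulk tissue.

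**Figure D4:**
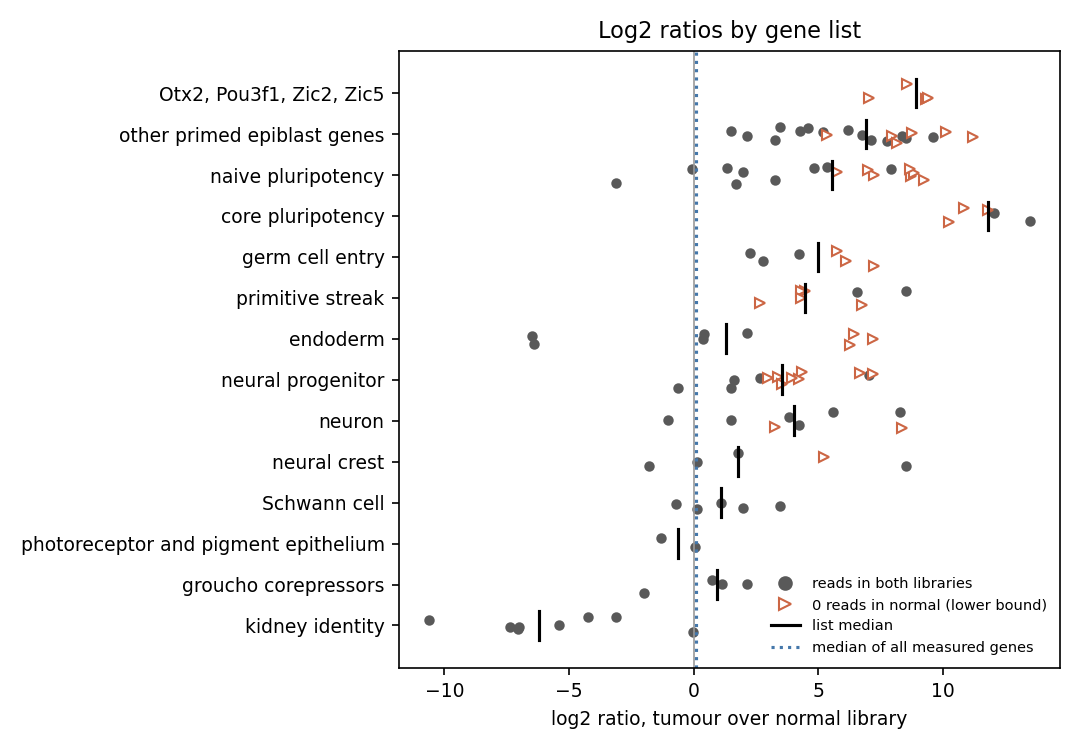
Log2 ratio, tumour over normal library, of each measured gene by list; points jitter vertically within a list. Filled points have reads in both libraries, and black lines are list medians. Open triangles (lower bound in the legend) have 0 reads in the normal library. They are drawn at the ratio for the floor of 3 reads, which lies above the lower counting limit. The 4 primed epiblast factors (median 8.95) and the 20 other primed epiblast genes (6.95) lie right of the dotted median of all measured genes (0.08), and the kidney genes (-6.20) lie left of it.

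Markers of neural cells, in which the same 4 factors are known to be made, moved in the same direction. Of 13 measured neural progenitor genes on a list of 15, 12 were higher and 1 neither, with a median log2 ratio of 3.56. Of all measured genes 31.2% were higher and 28% lower. For 8 of the 13, with 0 reads in the normal library, the call was fixed. The summed level over the whole list was 53.1 CPM in normal kidney and 230.4 CPM in the tumour. Most of both sums was 1 gene, the intermediate filament gene Nes, named after its values were seen, with 46.98 and 147 CPM, 3.12-fold higher (2.92 to 3.34). Among the defining markers, Sox1 had 0 and 461 reads, at least 147-fold higher, Pax6 0 and 320, at least 102-fold higher, and the midbrain factor En2 2 and 275, a ratio of 131 (36.0 to 1089). Of 9 neuron genes 8 were measured, of which 7 were higher and 1 lower, with a median of 4.04 and summed levels of 20.6 and 138 CPM. Among these 8, 2 had 0 reads in the normal library. The neuronal tubulin Tubb3 had 0 and 1038 reads, at least 330.1-fold higher, Dcx 1 and 330, a ratio of 315 (56.1 to 12472), and Stmn2 was 49.1-fold higher (29.6 to 88.2). The synaptic vesicle gene Syp was 2.05-fold lower (1.56 to 2.70), though short of 2-fold with plain CPM and header totals. In the normal library 9 of the 15 progenitor genes and 3 of the 9 neuron genes were at 0 reads, and in the tumour none was. The part of neural cells in the reads of Otx2, Pou3f1, Zic2 and Zic5 was not tested.

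Markers of cell types in which single members are known had lower summed levels in the tumour library than the neural lists. The lists differ in size and in genes, so these sums do not compare the cell types. The counts below stand beside 31.2% higher and 28% lower over all measured genes. For Schwann cells, which make Pou3f1, 5 of 8 genes were measured, of which 3 were higher and 2 neither, with summed levels of 20.8 and 27.9 CPM. The Schwann cell and neural crest factor Sox10 had 5 and 14 reads, while Egr2, a factor of myelination, was 11.1-fold (4.48 to 35.4), Prx 3.99-fold (2.97 to 5.44) and Mbp 2.15-fold higher (1.53 to 3.05). For photoreceptors and pigment epithelium, which make Otx2, 2 of 9 genes were measured and none was higher, and summed levels were 28.6 and 12.3 CPM. Nrl had 0 and 2 reads, Rpe65 0 and 2 and Tyr 0 in both, and Mitf was 2.497-fold lower (2.17 to 2.88), short of 2-fold with plain CPM and header totals. For the neural crest, where Zic5 is known, 5 of 6 genes were measured, of which 3 were higher, 1 lower and 1 neither, with summed levels of 3.32 and 24.4 CPM. Foxd3, which is also on the primed list, had 1 and 390 reads, a ratio of 372 (66.4 to 14733), Pax3 0 and 120, at least 38.2-fold higher, Twist1 was 3.46-fold higher (1.96 to 6.45), and Snai2 was 3.41-fold lower (1.75 to 7.15). The part of these cell types in the reads of the 4 factors was not tested either.

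The tissue label was checked on 8 genes of differentiated kidney, of which 7 were lower in the tumour library and 1 neither. Among all measured genes 28% were lower. The summed level of the 8 was 23992 CPM in normal kidney and 699.8 CPM in the tumour. The phosphate transporter Slc34a1 was 1560-fold lower (1271 to 1938), uromodulin (Umod) 166-fold (154 to 180) and the salt transporter Slc12a1 132-fold (119 to 148). All 8 still had reads in the tumour, in which the 4 primed epiblast factors together came to 228 CPM.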

How the data were processed

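Total RNA from homogenised tissue (TRIzol, RNeasy) was depleted of ribosomal RNA with Ribo-Zero Gold and made into TruSeq Stranded Total RNA libraries, per the labels' protocols. The tools named in the submitters' processing notes are STAR 2.5.0c, HOMER and bcl2fastq, with the build mm10. How multi-mapping reads were treated and the strand setting are not given in the sources used here. The deposited counts are whole reads over exons, and the authors also gave RPKM values scaled, per the file headers, to the totals there. The RPKM equalled count over length and header total, with a largest difference of 1.80e-06.

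TMM scaling (edgeR 4.0.16, R 4.3.3) gave factors of 0.824 and 1.21. Ratios carry exact conditional (Clopper-Pearson) 95% intervals, RPKM exact Poisson intervals, all without regard to PCR copies. For 0 reads the floor was 3 counts (0.124 and 0.119 CPM), and the fold is then the value at that floor, with its lower counting limit below it. Other work used scipy 1.17.1, pandas 2.3.3, numpy 2.4.6 and matplotlib 3.10.9 in Python 3.11.15. The code for the calls was run on simulated counts that held counting error alone. Such a run cannot check variation between animals or libraries.

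The members and lists were chosen with earlier results of these data known. Named are every member, its paralogs, Pou5f1 and Sox2, and per list the 3 largest ratios in the direction of its median and the largest the other way if at least 2-fold, with a mean of at least 1 CPM. Also named are the 3 nearest models with reads on each side of a member, and the 3 measured genes nearest in log2(RPKM + 0.1) over both libraries. Some genes that this rule takes are not reported here. Others were chosen after their values were seen. Alternatives were plain CPM, header totals, DESeq2 1.42.0 size factors, other filters, pseudocounts and lengths.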

Additional observations from a re-analysis of the deposited data

How the results depend on the processing

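All 4 factors and 20 of 20 primed epiblast genes were called higher under every alternative run. With 0 reads in the normal library and at least 412 in the tumour, the call of the 4 factors could not change. It is therefore no check of the call, and 6 of the 20 genes also had 0 reads in the normal library. The count of all genes called ran from 6763 to 10591 around 9665. Of 80 values under alternatives, 70 lay within the counting interval (for folds, that with 3 reads in the normal library) or, for counts of genes, within 1.5 times, 9 moved further and 1 reversed. The calls of the 4 factors, which could not change, are among the 70. The interval for folds is wide, so that 277 and 1945 for Otx2 both lay within it. The folds are set by what stands in for 0. With RPKM plus 1 in both libraries they became 28.6 for Otx2, 22.6 for Zic2, 12.9 for Pou3f1 and 6.22 for Zic5, and with RPKM plus 0.1 277, 217, 120.03 and 53.2. A floor of 1 count in place of 3 raised the folds to 1945, 2027, 1133 and 393, in the same order, and plain CPM raised them by less than 1.5 times. Lengths from GENCODE M21, added after seeing the data, changed the order. With the exonic length of the whole gene, Otx2 over Zic2 reversed from 1.28 to 0.655, Zic2 over Pou3f1 became 2.39 and Pou3f1 over Zic5 3.66. With exonic bases within the counted model alone, Otx2 over Zic2 was 1.14. No paired analysis was possible because there is 1 library per group, and for the same reason no replicate could be left out. With 0 reads in the normal library, levels below 3 reads were not detectable at this depth.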

Other observations

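Genes that the embryo uses next to or after the primed epiblast were also read in the tumour library. All 6 genes of germ cell entry, a fate of epiblast cells that Otx2 holds back in the mouse, were called higher. Their median log2 ratio was 5.01, against 0.08 over all measured genes, of which 31.2% were called higher. For 3 of the 6, with 0 reads in normal kidney, the call was fixed. Dppa3 had 0 reads in normal kidney and 477 in the tumour, at least 152-fold higher, Tfap2c 0 and 217, at least 69.0-fold, and Prdm14 0 and 171, at least 54.4-fold. Dppa3 and Prdm14 are also on the naive pluripotency list, and Dppa3 has retrotransposed copies, so its count is uncertain. Their summed level was 3.90 CPM in normal kidney and 55.8 CPM in the tumour, against 228 CPM for the 4 primed epiblast factors.

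Primitive streak genes were higher for 7 of 7 measured on a list of 9, with a median of 4.48. Not measured were Mesp1, with 0 reads in both libraries, and Tbx6, with 12 reads in normal kidney and 7 in the tumour. For 5 of the 7, with 0 reads in normal kidney, the call was fixed. The shares over all measured genes were 31.2% higher and 28% lower. T (Brachyury) had 1 and 385 reads, a ratio of 367 (65.5 to 14544), Fgf8 0 and 341, at least 108-fold higher, and Eomes 5 and 495, a ratio of 94.4 (40.2 to 292). Endoderm genes were divided, with 4 of 8 higher, 2 lower and 2 neither, and their summed level was 1225 CPM in normal kidney and 69.2 CPM in the tumour. Cer1, an antagonist of Nodal and a known target of OTX2, had 0 and 463 reads, at least 147-fold higher, Foxa2 0 and 273, at least 86.8-fold, and Gata4 0 and 244, at least 77.6-fold. Hnf4a, also a factor of the proximal tubule, was 90.9-fold lower (80.9 to 102) and held 1042 and 11.5 CPM of these sums.

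Of the 4 groucho corepressors, partners that OTX proteins can recruit, Tle4 was 4.45-fold (4.03 to 4.91) and Tle1 2.22-fold higher (1.96 to 2.52) and Tle2 4.01-fold lower (2.73 to 6.03). Tle3, at 1.67-fold higher (1.54 to 1.80), was not called, but passed 2-fold with plain CPM and header totals.

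Over 2 libraries, a gene is most like a member when both have 0 reads in the normal kidney and the same tumour level. The nearest to Otx2 in log2(RPKM + 0.1) were Dppa4, at 28.0 RPKM in the tumour, the small nucleolar RNA Snord52 at 26.0 and Fbxo15 at 25.5. Nearest to Zic2 were Zfp42, at 21.6 RPKM, and Mir3070a and Mir3070b, which had 63 reads each. Nearest to Pou3f1 were Sohlh2, 1700013H16Rik and Tuba3a, all at 11.9 RPKM, and nearest to Zic5 were Ccl8, 2410088K16Rik and Sapcd2, at 5.22, 5.23 and 5.14 RPKM. Within 0.1 on the log2 scale there were 2 genes for Otx2, 6 for Pou3f1, 11 for Zic2 and 8 for Zic5.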
